A study of Vitis vinifera with 6 samples.

Results

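Ripe berries of a seedless grapevine were compared with ripe berries of the seeded clone it came from. The wild-type is Sangiovese, a wine cultivar of Vitis vinifera whose berries hold seeds, and the mutant is a spontaneous somatic variant of it without seeds and with smaller berries and bunches at harvest. Both were sampled at E-L 38, when berries are harvest-ripe. The comparison took in every gene model with a mean of at least 1 read per 1000000 counted reads (RPM) in the 2 libraries, which was 16946 of 28059 gene models. The series also holds 1 library of each clone from flowers (E-L 15) and 1 from young enlarging berries (E-L 27), so that it has 6 libraries, and those of the earlier stages appear here only beside the values at E-L 38.

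Each library was made from pooled RNA of 3 extractions of a single lot of flowers or berries from 1 clone; whether seeds were taken out of the berries first is not given in the sources used here. With 1 library a side there was no replicate test, and no p-value, SD or replicate error can be given. A ratio is given with the exact binomial (Clopper-Pearson) interval of its 2 read counts at 95% confidence, which covers counting error only. The clone, the vines, the bunch, the day a bunch reached ripeness and the library cannot be told apart in this comparison. The study itself compared stages within each clone, to limit differences from any asynchronous sampling of the 2 clones. It took both clones on the same dates and reports that they were then at the same stage. It also measured selected genes by real-time PCR in both of its biological replicates, which is not used here.

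A grape seed holds an embryo and an endosperm inside a seed coat. Late in its growth it fills with storage globulins and with oil kept in oleosin-coated bodies, and it builds up protective proteins before it dries. In Arabidopsis this maturation programme is switched on by regulators with a B3 domain, among them ABI3. Berry flesh and skin follow another course, in which walls loosen and sugars and defence proteins of the chitinase and thaumatin-like families build up.

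The wild-type library holds 98800321 counted reads and the mutant library 70888044, so that 1 read was worth 0.0101 RPM and 0.0141 RPM. Where no read was found, up to 3 may have been missed, equal to 0.0304 RPM for the wild-type and 0.0423 RPM for the mutant. Ripe berry genes were high in both libraries and in neither clone earlier. The beta-expansin EXPB4 (VIT_15s0021g02700), a protein that loosens walls, was at 1103 RPM in the wild-type and 1396 RPM in the mutant, and a class IV chitinase (VIT_05s0094g00330) at 969.7 and 712 RPM, against at most 7.44 and 16.2 RPM in the flowers and young berries. Of the flower markers, AP3, a MADS-box gene of petals and stamens, was at 107 and 84.4 RPM in the flowers of the wild-type and the mutant and at 0 and 0.0846 RPM in their ripe berries. The other markers of flower organs and pollen, PISTILLATA, MALE STERILITY 1 and MALE STERILITY 2, were at most at 1.03 RPM in either ripe library. Of the wider group of 13 pollen and flower organ genes, 3 gene models of MALE STERILITY 5, at 2.26 to 21.8 RPM, and Fimbrin 2, at 1.07 RPM, were above 1 RPM in wild-type ripe berries.

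Genes of seed maturation had nearly no reads in ripe berries of the mutant. The 10 genes of this list, named in the study and picked there on these same libraries, lay between 17.0 and 453 RPM in the wild-type and between 0 and 1.14 RPM in the mutant. Their summed level was 1153 RPM in the wild-type, or 113964 reads, and 2.17 RPM in the mutant, or 154 reads, which is 531-fold lower (453 to 626). The list took 0.115% of the counted reads of wild-type berries. In bulk berries, fewer cells of a type and less RNA per cell cannot be told apart. All 10 passed the filter on low values, and 9 of them passed it only through the wild-type, so their common direction is a description and not independent evidence.

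**Figure D1:**
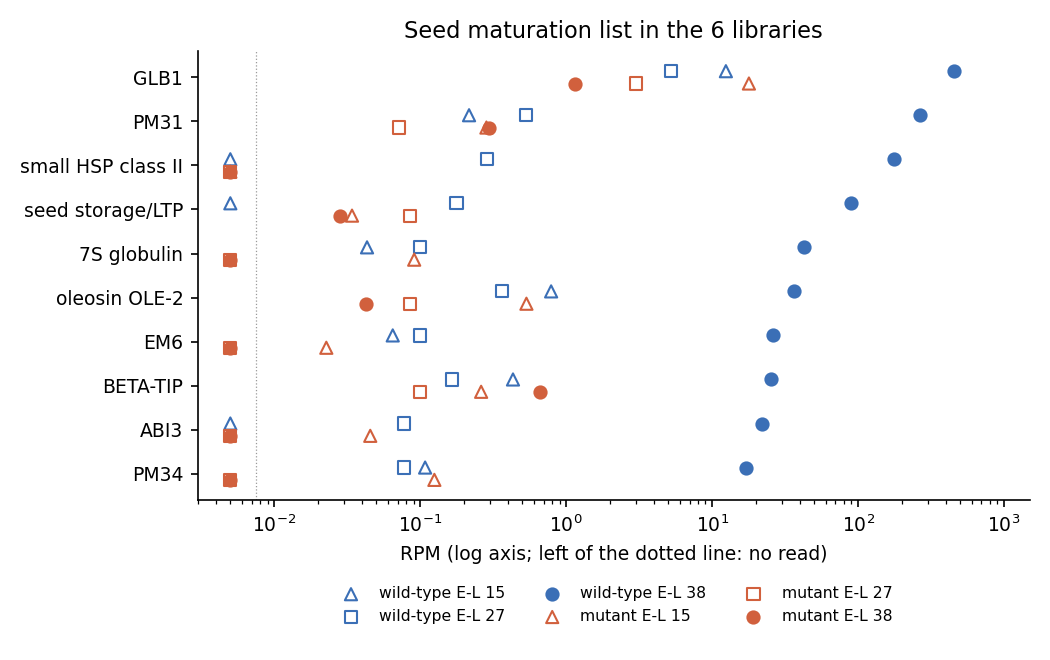
Level of each gene of the seed maturation list in the 6 libraries (RPM, log axis), with wild-type in blue, mutant in orange, and E-L 38 as filled circles. Points left of the dotted line had no read. The wild-type E-L 38 library stands alone on the right for each gene, between 17.0 and 453 RPM, and the highest value elsewhere is 17.9 RPM, of GLB1 in mutant flowers.

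Storage proteins gave the highest wild-type level. The globulin GLB1 (VIT_07s0151g00640) was at 453 RPM in the wild-type and at 1.14 RPM in the mutant, a 397-fold difference (319 to 499.5). It was the one gene of the list above 1 RPM before ripening, at 12.4 and 17.9 RPM in flowers and at 5.25 and 3.0001 RPM in young berries of the wild-type and the mutant. Its level in mutant ripe berries was therefore also the lowest of the 6 libraries. A second globulin, the 7S precursor (VIT_14s0128g00200), was at 42.5 RPM in the wild-type and had no read in the mutant, which makes it at least 1005-fold lower. A gene of the protease inhibitor, seed storage and lipid transfer protein family (VIT_14s0108g00520) had 8820 reads in the wild-type (89.3 RPM) and 2 in the mutant, 3164-fold lower with an interval from 876 to 26131.

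The oleosin OLE-2 (VIT_17s0000g09000), which coats oil bodies, had 3589 reads in the wild-type (36.3 RPM) and 3 in the mutant, a ratio of 858 (293 to 4164). BETA-TIP (VIT_16s0039g00220), a vacuolar aquaporin known from seeds in Arabidopsis, was the least changed gene of the list, with 25.2 RPM in the wild-type and 0.663 RPM in the mutant, 38.0-fold lower (28.5 to 51.9). Genes of protective proteins had few or no reads in the mutant. EM6 (VIT_13s0067g01250), a late embryogenesis abundant protein in Arabidopsis, had 2571 reads in wild-type berries and 0 in mutant ones, at least 615-fold lower. A class II small heat shock protein gene (VIT_04s0008g01610), a family of chaperones that bind unfolding proteins, had 17463 reads in the wild-type (177 RPM) and 0 in the mutant, at least 4176-fold lower, the largest bound in the list. The seed maturation protein genes PM31 (VIT_18s0001g01570) and PM34 (VIT_14s0128g00340) were at 265 and 17.0 RPM in the wild-type. PM31 kept 21 reads in the mutant, 895-fold fewer at equal depth (585 to 1446), and PM34 kept none, at least 401-fold fewer.

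ABI3 (VIT_07s0005g05400), the regulator, went the same way as the genes named above. It was at 0 and 0.0775 RPM in flowers and young berries of the wild-type, at 22.1 RPM in its ripe berries, and had no read in the ripe berries of the mutant, at least 521-fold lower. Over the list, the median of the log2 ratios was -6.26 with 0.5 RPM added to both values, beside -0.08 over all 16946 gene models. The amount added sets this number, since 5 of the 10 genes had no read in the mutant. Without it, and with those 5 genes at their bound, the median was -9.50.

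Over all gene models, 1081 were at least 2-fold lower in the mutant, which is 6.38% of those compared, and 249 were at least 2-fold higher, which is 1.47%. These calls use the ratio with 0.5 RPM added. The 95% counting interval lay wholly past 2-fold for 992 (5.85%) and 221 (1.3%). Most gene models were close in the 2 clones: 83.9% were within 1.5-fold at E-L 38, against 95.3% at E-L 27 and 97.2% at E-L 15 for the same gene models. The filter was on the level at E-L 38, so genes expressed only earlier are not in these shares. At least 10-fold lower were 68 gene models (0.401%), and none was 10-fold higher (0%). That none was higher depends on the scale and on the amount added: 2 were higher with TMM factors or size factors over the 6 libraries, and with nothing added, a count taken after seeing the data, 154 were lower (0.909%) and 7 were higher (0.0413%). At least 4-fold lower were 334, and 33 were 4-fold higher.

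**Figure D2:**
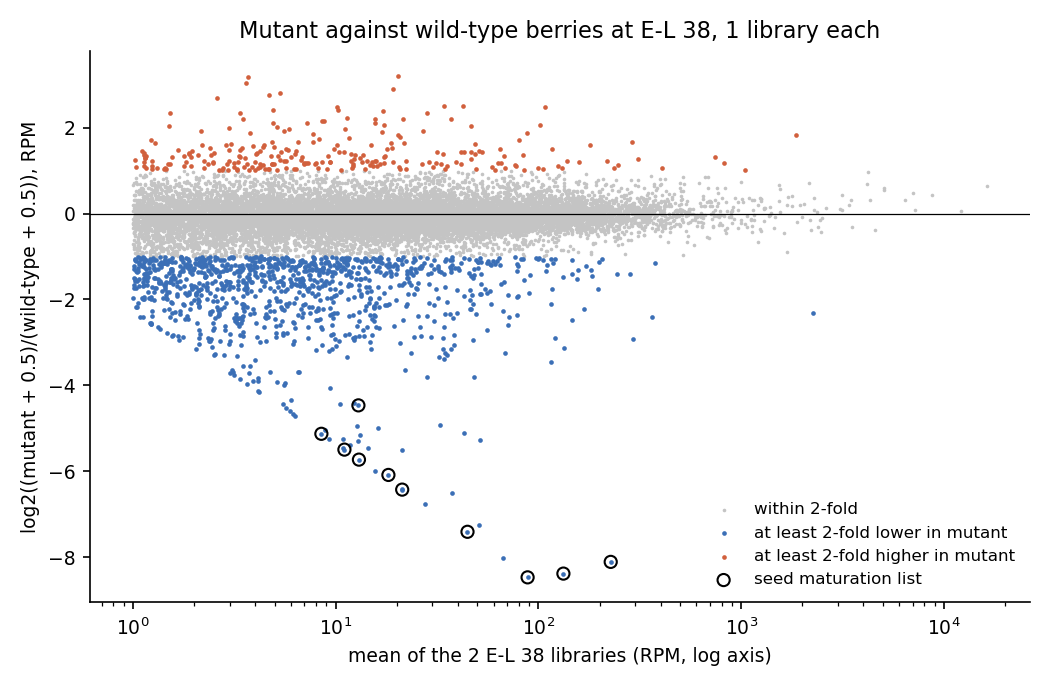
Log2 ratio of mutant to wild-type RPM at E-L 38, with 0.5 RPM added, against the mean of the 2 libraries (RPM, log axis), 1 point for each of 16946 gene models. The 1081 blue points are at least 2-fold lower and the 249 orange points at least 2-fold higher; the circled seed maturation list, with a median of -6.26, lies along the lower edge.

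The choice of scale moved small differences. The 10 most abundant gene models took 6.80% and 8.78% of the reads. One gene model led both libraries, at 12815 RPM in the wild-type and 19835 RPM in the mutant, 1.55-fold higher (1.54 to 1.55). Relative to RPM, size factors over the 6 libraries shifted the log2 ratio of mutant to wild-type, taken with nothing added, upward by 0.14, size factors over the 2 libraries by 0.10 and TMM factors by 0.12. On those scales 953 to 973 gene models were 2-fold lower and 296 to 336 were 2-fold higher, and the median over all gene models turned from -0.08 to between 0.01 and 0.05. None of the 28 named genes that passed the filter changed its side of 2-fold. By a rule set on counting error, however, 16 of the 28 moved with size factors over the 6 libraries or with TMM. With size factors over the 2 libraries 10 moved. With size factors over the 6 libraries, the log2 ratio with 0.5 RPM added went from 0.34 to 0.48 for EXPB4. For SEEDSTICK it went from -0.31 to -0.17. The study's mapping summary lists a larger share of unmapped and of intronic reads for the mutant E-L 38 library than for the others; the part of this in the ratios was not tested.

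The share of gene models 2-fold lower fell with the level of the gene. The share 2-fold higher did not fall steadily, at 2.23% between 3 and 10 RPM, 0.754% between 100 and 300 RPM and 1.27% above. Between 1 and 3 RPM, 13.1% of 2623 gene models were lower and 2.10% were higher in the mutant. Between 30 and 100 RPM, these shares were 2.71% and 0.878% of 4101. From 300 RPM on, where 472 gene models lie, 3 were lower and 6 were higher. The 3 lower ones lay between 517 and 3766 RPM in the wild-type and between 114 and 751 RPM in the mutant, and the 6 higher ones lay between 183 and 821 RPM in the wild-type and between 439 and 2925 RPM in the mutant. The rule on intervals gave 12.4% lower at 1 to 3 RPM and 2.51% at 30 to 100 RPM. Few of the most abundant genes of the ripe berry were thus past 2-fold in either direction, and the excess of lower genes lay among those of low and middle level.

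**Figure D3:**
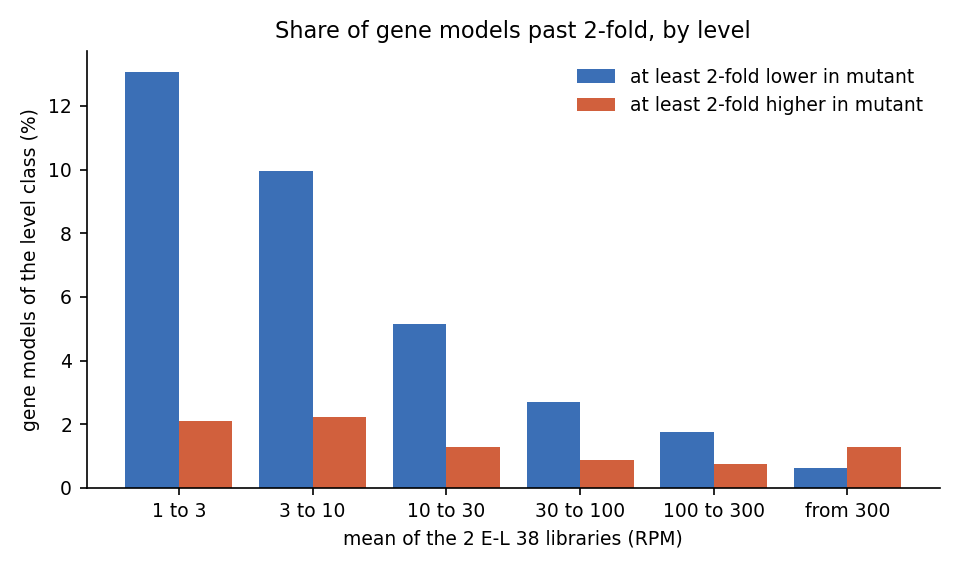
Share of gene models (%) at least 2-fold lower (blue) or at least 2-fold higher (orange) in the mutant at E-L 38, by the mean of the 2 libraries (RPM). The lower share falls from 13.1% in the first class to 0.636% in the last, where it is below the higher share of 1.27%.

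Gene models that were silent before ripening were often lower in ripe mutant berries. Among all 16946, 302 stayed under 0.5 RPM in each of the 4 libraries of flowers and young berries, which are not part of the comparison. Of these 302, 154 (51.0%) were at least 2-fold lower in ripe mutant berries and 4 (1.32%) were higher. Their median in ripe berries was 3.88 RPM in the wild-type and 1.39 RPM in the mutant, and some passed the filter only through the wild-type. The 302 also share members with the seed list and with the longest run described below. These are therefore not separate results, and the shares are a description. Among genes of like level the shares were as follows. Of the 143 with a mean of at least 3 RPM, 62.9% were lower, beside 5.15% of all gene models at that level, and of the 159 between 1 and 3 RPM, 40.3% were lower, beside 13.1%. Under the other scalings 49.3% or more of the 302 were lower. The 68 gene models that were at least 10-fold lower hold 30 of the 302. Their median level was 0.20, 0.37 and 21.4 RPM in wild-type flowers, young berries and ripe berries, and 0.19, 0.10 and 0.12 RPM in those of the mutant. Of these 68, 17 had no read in the mutant, and the 10 genes of the seed list carried 38.7% of their summed wild-type RPM.

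The 33 gene models that were at least 4-fold higher in the mutant were looked at in the same way. Their threshold is milder than that of the 68, and the 334 at least 4-fold lower were not profiled. The 33 and the 68 are therefore not compared. Their median was 11.2, 9.95 and 2.89 RPM in the wild-type at the 3 stages in turn and 10.5, 10.99 and 17.5 RPM in the mutant. By the median, the wild-type ripe berry was the lowest of the 6 libraries. That it lies below the mutant ripe berry follows from how the 33 were picked. At 1 RPM or more already in wild-type flowers were 29 of the 33, beside 15907 of all 16946 gene models. Under 0.5 RPM in flowers and young berries was 1 of the 33 (3.03%), beside 302 of all (1.78%). Neither count sets the 33 apart from gene models at large. Gene models were also grouped by their change between flower and young berry, which uses no E-L 38 library. Of the 171 at least 4-fold higher in young berries than in flowers of both clones, 22.2% were lower in ripe mutant berries and 3.51% higher. Of the 177 at least 4-fold lower in young berries, 18.6% and 3.95% were, and of the 14164 that stayed within 2-fold, 4.54% and 1.02%.

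Among gene models kept for their level in ripe berries, clone differences past 2-fold were fewer at E-L 27, in other libraries. A mean of at least 1 RPM was reached by 18787 gene models at E-L 27 and by 18825 at E-L 15. Those expressed at these stages but not in ripe berries are left out here, so the counts do not describe the earlier stages as a whole. Among the 16946 gene models, 211 (1.25%) were at least 2-fold lower in young mutant berries and 37 (0.218%) were higher. In flowers these were 62 (0.366%) and 37 (0.218%). Of the 211, 76 (36.02%) were lower again at E-L 38, which is 7.03% of the 1081. Most of the genes lower in ripe berries were therefore not called 2-fold lower in young ones. For 154 of the 1081 this was fixed beforehand. They were under 0.5 RPM in all 4 earlier libraries, and with 0.5 RPM added such levels cannot give a 2-fold lower call. A clone difference at those low levels would not be seen here. No test was made of this overlap.

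Genes lower in the mutant lay side by side in places. In identifier order, which follows position along a scaffold, 24 runs held at least 4 lower gene models within 10 neighbours, and together they held 150 of the 1081. The higher genes formed 4 such runs, with 22 of the 249. Lower calls were 4.34 times as many as higher ones, so more runs are to be expected among them from their number alone. Whether the runs go beyond that was not tested. Runs of related copies are common in grapevine, but whether the neighbours here are copies was not examined. Only reads with a single position were counted, so reads of near-identical copies were dropped, and the level of each copy in a run is uncertain. The identifiers carry no gene names in the tables used here, and runs are given by chromosome and scaffold alone.

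The longest run lay on chromosome 16, scaffold 0100, with 37 gene models. All 32 that passed the filter were at least 2-fold lower in the mutant, and the other 5 were under a mean of 1 RPM. The 32 lay between 1.72 and 124 RPM in the wild-type and between 0.296 and 19.7 RPM in the mutant, from 3.20-fold to 11.99-fold lower with a median of 8.10. Their summed level, with that of the other 5, was 2.17, 11.2 and 1051 RPM in the wild-type at the 3 stages in turn and 5.19, 4.11 and 143 RPM in the mutant. In ripe berries the mutant was 7.34-fold lower (7.19 to 7.49). It was thus far above the young berry in both clones, and unlike the seed list it was still expressed in the mutant. On chromosome 16, 15.0% of gene models were lower, against 4.57% to 7.88% on the other chromosomes and among unplaced gene models. Without this scaffold it was 11.2%, or 65 of 580.

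**Figure D4:**
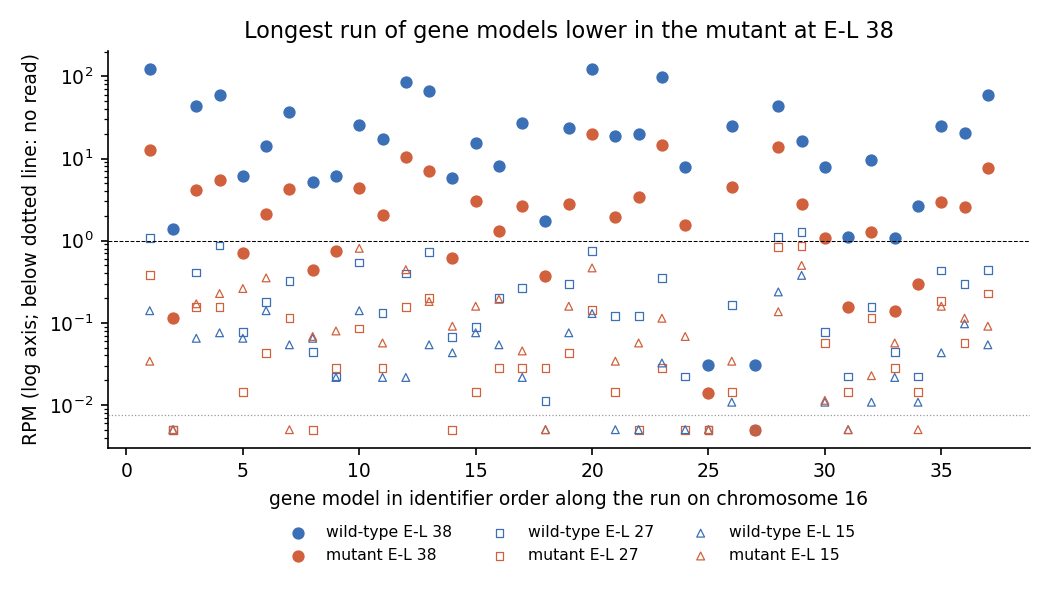
Level (RPM, log axis) of the 37 gene models of the longest run, in identifier order, in the 6 libraries. Filled circles are E-L 38, open symbols are earlier stages, and points below the dotted line had no read. The mutant (orange) is below the wild-type (blue) at E-L 38 along the run, and no value of an earlier stage exceeds 1.26 RPM.

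The next 4 runs by number of genes were shorter. On chromosome 16, scaffold 0039, 13 of 16 gene models past the filter were lower. Their stretch summed to 247 RPM in the wild-type and 52.1 RPM in the mutant, 4.75-fold lower (4.58 to 4.91), with at most 21.2 RPM at earlier stages. On chromosome 5, scaffold 0077, 11 of 14 were lower. That stretch was at 384 and 937 RPM at the earlier stages of the wild-type and at 4709 RPM in its ripe berries. In the mutant it stood at 440 and 826 RPM at those stages and at 927 RPM in ripe berries, 5.08-fold lower than in the wild-type (5.04 to 5.12). A single gene model gave 3766 of the 4709 RPM and was at 751 RPM in the mutant. On chromosome 19, scaffold 0014, 7 of 9 were lower, and the stretch was at 73.6 and 19.3 RPM, 3.82-fold lower (3.61 to 4.05). It holds the receptor kinase gene ARK3 (VIT_19s0014g04130), at 23.6 RPM in the wild-type, 6.38 RPM in the mutant and at most 0.67 RPM in the other libraries. ARK3 was 3.70-fold lower (3.34 to 4.10).

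The run on chromosome 11, scaffold 0052, went the other way, with 7 of 8 gene models higher in the mutant. Its summed level was 98.5, 294 and 31.0 RPM in the wild-type at the 3 stages in turn, and 91.0, 351 and 140 RPM in the mutant. The clones were alike in young berries, and in ripe berries the mutant was 4.52-fold higher (4.34 to 4.71).

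Of the 64 genes that the study names by identifier, 28 passed the filter, and 36 did not, with at most 1.19 RPM in the wild-type and 1.03 RPM in the mutant. Beside the 10 seed genes, 5 of the 28 were at least 2-fold lower and 2 were higher, where 6.38% and 1.47% of all gene models were. The study chose these names on the same libraries, so their counts are a description only. MYB7 (VIT_04s0008g01800), an R2R3-MYB transcription factor gene, had no read in mutant ripe berries and 267 in the wild-type (2.70 RPM), at least 63.9-fold lower. Unlike the seed genes it was well expressed earlier and alike in both clones, at 7.44 and 6.64 RPM in flowers and 30.1 and 30.2 RPM in young berries. MALE STERILITY 5 is known in Arabidopsis for its part in pollen meiosis, and 3 gene models carry its name. VIT_15s0107g00550 was at 21.8 RPM in the wild-type and 2.47 RPM in the mutant, 8.82-fold lower (7.56 to 10.4). VIT_07s0005g05680 had 344 reads in the wild-type (3.48 RPM) and 3 in the mutant, a ratio of 82.3 (27.9 to 401). VIT_07s0005g05720 was at 2.26 and 1.16 RPM, 1.95-fold apart (1.51 to 2.55). In flowers all 3 were lower in the mutant, in the order given by 1.54-fold (1.503 to 1.58), 4.34-fold (3.87 to 4.88) and 2.02-fold (1.89 to 2.16). In young berries the mutant was 1.35-fold (1.27 to 1.45), 1.28-fold (0.585 to 2.82, an interval that includes no difference) and 1.56-fold (1.25 to 1.95) higher.

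**Figure D5:**
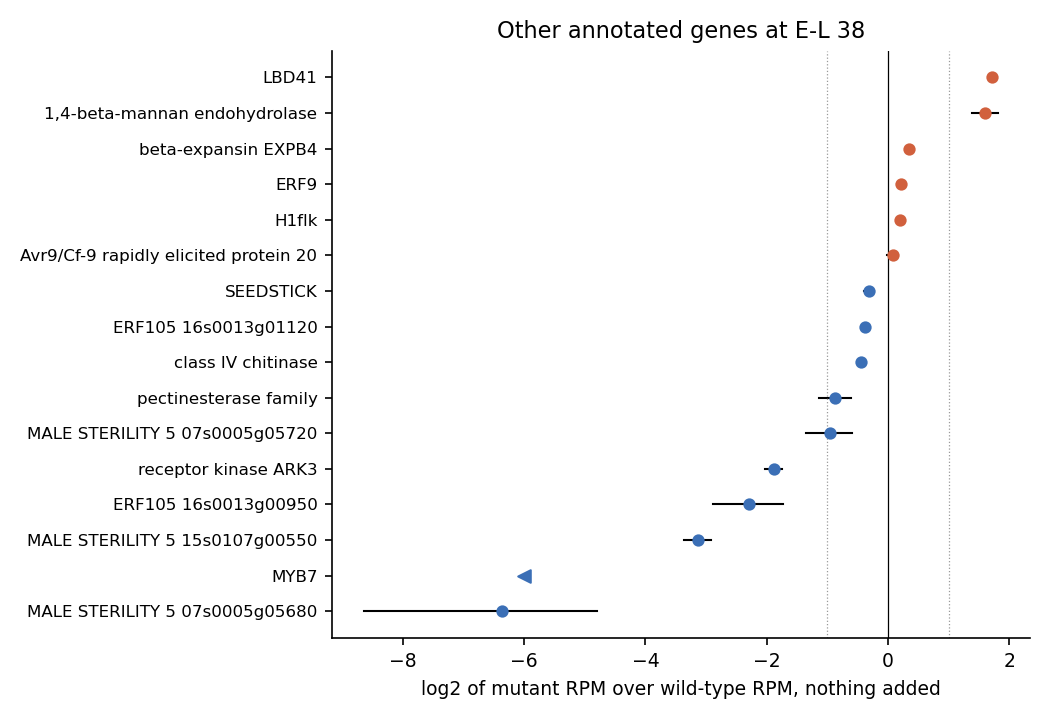
Log2 ratio of mutant to wild-type RPM at E-L 38, with nothing added, of the 16 named genes past the filter that are neither on the seed list nor reference genes. Bars are 95% counting intervals, dotted lines mark 2-fold, and the triangle of MYB7 is a bound at 63.9-fold. LBD41 (3.29-fold) and the mannan endohydrolase (3.03-fold) are the only ones past 2-fold on the higher side.

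LBD41 (VIT_14s0006g02950), a LATERAL ORGAN BOUNDARIES gene induced by low oxygen in Arabidopsis, was at 123 RPM in mutant ripe berries and 37.4 RPM in the wild-type, 3.29-fold higher (3.17 to 3.42). It was lower than the wild-type in young berries of the mutant, at 5.45 against 12.6 RPM. In flowers it was higher in the mutant, as in ripe berries, at 53.1 against 25.4 RPM, 2.09-fold (1.99 to 2.20). A 1,4-beta-mannan endohydrolase gene (VIT_18s0089g00140), of a family that cuts wall mannans, was at 8.03 RPM in the mutant and 2.65 RPM in the wild-type, 3.03-fold higher (2.61 to 3.52). In flowers it went the other way, at 3.51 RPM in the mutant and 40.7 RPM in the wild-type, 11.6-fold lower (10.3 to 13.1). VIT_18s0089g00170, on the same scaffold, carries no name in the tables used here and was at 0.334 RPM in the wild-type and 7.03 RPM in the mutant, 21.0-fold higher (14.8 to 30.9). By the bound of its interval it was the gene model highest in the mutant, followed by VIT_02s0154g00300, also unnamed, with 0.395 and 6.84 RPM, 17.3-fold higher (12.5 to 24.7). In flowers of the wild-type and the mutant, VIT_18s0089g00170 was at 12.1 and 2.63 RPM and VIT_02s0154g00300 at 2.71 and 3.02 RPM.

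The unnamed gene models lowest in the mutant by the same measure resembled the seed genes. VIT_12s0059g00480 had 13188 reads in the wild-type (133 RPM) and 1 in the mutant, 9462-fold lower with an interval that starts at 1698. VIT_00s1290g00010 had 4192 reads (42.4 RPM) and none, at least 1003-fold lower. In flowers neither had a read, and in young berries they were at 0.288 and 0.111 RPM in the wild-type and at 0 in the mutant.

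SEEDSTICK (VIT_18s0041g01880), a MADS-box gene of ovule identity, was at 33.2 RPM in the wild-type and 26.7 RPM in the mutant, 1.24-fold lower (1.17 to 1.31), after 67.4 and 10.7 RPM in young berries. The other 5 genes of the ovule and seed coat group were under 0.25 RPM in both ripe libraries. In the wall group, EXPB4 was 1.27-fold higher in the mutant (1.26 to 1.28) and a pectinesterase gene (VIT_15s0048g00510) 1.84-fold lower (1.53 to 2.21), at 4.35 and 2.37 RPM. In the ethylene and stress group, the class IV chitinase was 1.36-fold lower (1.35 to 1.38) and ERF9 (VIT_12s0028g03270), an ethylene response factor, 1.16-fold higher (1.11 to 1.21). Of 4 gene models of ERF105, 2 passed the filter. VIT_16s0013g00950 was at 2.14 RPM in the wild-type and 0.437 RPM in the mutant, 4.88-fold lower (3.34 to 7.37). The other, VIT_16s0013g01120, was at 63.7 and 49.1 RPM, 1.30-fold lower (1.24 to 1.35). The reference genes SAND and GAPDH lay at 1.002-fold higher (0.967 to 1.04) and 1.12-fold lower (1.11 to 1.13). No named gene that passed the filter changed its direction under the 3 other scalings. The small ratios of EXPB4, SEEDSTICK, the class IV chitinase, ERF9 and GAPDH did leave their printed intervals under each of them. Those intervals hold on the RPM scale only.

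The list stops where the filter does. The mean of the 2 libraries was 1.0006 RPM for the gene model just inside it and 0.9989 RPM for the one just outside, and 240 lay between 0.9 and 1 RPM. Outside it was a vacuolar iron transporter gene (VIT_15s0048g01070), at 1.19 RPM or 118 reads in the wild-type and without a read in the mutant, at least 28.2-fold lower, and at most 0.0111 RPM in flowers and young berries. Also outside was PISTILLATA (VIT_18s0001g01760), another gene of petals and stamens, with 4 wild-type and 73 mutant reads.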

How the data were processed

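The authors sequenced poly(A) RNA of 6 libraries as 100 bp paired-end reads, aligned them with BWA to the 12x grapevine genome, allowing 2 mismatches in the first 32 bp, and processed the alignments with SAMtools (versions are not given in the sources used here). The deposited counts are whole numbers of reads with a unique position, summed over each gene model, and the deposited RPM values are these counts per 1000000 counted reads, with no division by gene length. A check showed each RPM value to follow from its count and the library total.

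Ratios were computed from RPM with Python 3.11.15, numpy 2.4.6, pandas 2.3.3 and scipy 1.17.1. Plots used matplotlib 3.10.9. Where one library had no read, 3 reads took its place and the ratio is a bound, and none was given where both counts were 3 or fewer. Calls used log2 ratios with 0.5 RPM added and a mean of at least 1 RPM. Alternatives were size factors (DESeq2 1.42.0), TMM (edgeR 4.0.16 in R 4.3.3), 0.05 or 1 RPM added, no filter, a mean of at least 10 RPM, and the deeper library thinned to the other's total. Calling and intervals were run on simulated counts with counting error only. Those counts hold no variation between bunches, vines or libraries, so they cannot show how the calls behave under it.

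Named genes are those the study gives by identifier, at most 2 others a direction, ranked by the interval bound nearest to 1, and the 5 runs with most genes. Lists by gene name and promoter motifs were planned; since none of the identifiers matched the gene table used here (0 of 28059), they were not run, and runs are given by scaffold. Members, lists and rules were chosen with earlier results of these data known.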

Additional observations from a re-analysis of the deposited data

Results flagged for a closer look

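For 6 named genes the mutant stood above the wild-type at one stage and below it at another, each time with a counting interval wholly past 2-fold. The difference between the stages was not tested, since each value rests on 1 library a clone. The ERF105 gene models VIT_16s0013g00950 and VIT_16s0013g01050 were 4.30-fold and 3.71-fold higher in young mutant berries (E-L 27) and 4.88-fold and 3.97-fold lower at E-L 38. LBD41 (VIT_14s0006g02950) was 2.31-fold lower at E-L 27 and 3.29-fold higher at E-L 38, and in flowers it was 2.09-fold higher (1.99 to 2.20). PISTILLATA (VIT_18s0001g01760) was 2.56-fold lower at E-L 27 and 25.4-fold higher at E-L 38 (9.52 to 95.8), where it was at 1.03 RPM. The 1,4-beta-mannan endohydrolase gene (VIT_18s0089g00140) was at least 3.63-fold lower at E-L 27 and 3.03-fold higher at E-L 38. The ABC transporter G member 4 gene (VIT_19s0015g00960) was 6.68-fold lower at E-L 27. At E-L 38 it had 7 reads against 0, which is 3.25-fold higher with 3 reads in place of 0. Of these genes, the ERF105 gene model VIT_16s0013g01050, PISTILLATA and the ABC transporter gene were under the filter and are not among the 16946 gene models compared. Among those 16946, 6 were higher at E-L 27 and lower at E-L 38 by this measure and 8 the other way round. Lower at both stages were 89, and 8 were higher at both.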

How the results depend on the processing

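The counts of 1081 lower and 249 higher gene models ranged from 935 to 1234 and from 204 to 336 over the alternatives that compared about the same gene models. With no filter, 1314 of 25457 were lower and 264 were higher. With a mean of at least 10 RPM required, 364 of 10564 were lower and 110 were higher, because fewer gene models were compared. Lower calls made up 81.3% of all calls and 73.9% to 83.3% under the alternatives. The median over all gene models of -0.083 turned to 0.046 with size factors over 6 libraries, 0.014 with size factors over the 2 libraries and 0.029 with TMM, and was -0.052 when the 10 most abundant gene models of either library were left out of the totals, an alternative chosen after seeing the data. The median of the seed list, -6.26, was -6.43 with size factors over 6 libraries and -6.42 with TMM. Under these 2 scalings, wild-type levels were divided by 0.87 and 0.88 and mutant levels by 0.80 and 0.81. The same 0.5 RPM was then added, so it weighed less. With nothing added, both scalings shift the log2 ratio upward, so the lower medians come from the added amount. The median was -6.36 without the most abundant gene models, -8.91 with 0.05 RPM added and -5.30 with 1 RPM added. Leaving out the scaffold of the longest run, also chosen after seeing the data, gave 1048 lower and 248 higher. At equal depth 1087 were lower and 245 higher. All 32 genes of the longest run stayed 2-fold lower under the 3 scalings and at equal depth. No paired analysis was possible because each clone and stage has 1 library. Genes under about 0.04 RPM cannot be told from absent at this depth.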
